A study of Drosophila melanogaster with 2 samples.

Results

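MicroRNA genes are the 260 genes on the 6 main chromosome arms of the *Drosophila melanogaster* genome whose transcripts the Ensembl release 115 annotation types as microRNA precursors or whose symbols start with mir. They were examined for binding of kay among 17683 annotated genes on those arms, transposable elements left out. The 2 copies on unplaced ribosomal DNA sequence were left out, bantam is annotated as mir-ban and let-7 as mir-let7. Binding was measured by ChIP-seq, the sequencing of DNA immunoprecipitated with a protein. The material was whole mixed-sex embryos aged 0 to 24 hours of a transgenic fly line with a stable kay fusion that carries GFP at the C-terminal end. The fusion was precipitated by an antibody to GFP from chromatin that had been sheared by sonication (Bioruptor) to 200 to 800 bp. All samples form 1 group with 2 biological replicates, numbered 2 and 4 in the labels, so no condition was compared with another, and the binding is that of the transgene's protein averaged over all cell types and stages of whole embryos.

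The gene kay encodes the fly Fos protein, which pairs with Jra, the fly Jun, to form the transcription factor AP-1. MicroRNAs are cut from hairpins in longer transcripts, first in the nucleus by Drosha with its partner Pasha and then in the cytoplasm by Dicer-1. The mature strand is loaded into AGO1 and pairs with target messages mainly through its seed, bases 2 to 8, after which the message is repressed. Some hairpins lie in long noncoding primary transcripts of their own, others in introns of protein-coding host genes. A few of the latter, called mirtrons, fill a whole short intron and bypass Drosha.

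The deposited lists hold 30000 candidate regions each for the pooled data and for replicates 2 and 4. A further list, named optimal, holds the regions, 12.9% of the pooled candidates, that passed the authors' threshold of irreproducible discovery rate (IDR). This rate measures agreement between peak lists, and the regions are called IDR peaks here. Each region has a summit and a signal value set by the authors' peak caller, and rank 1 is the strongest signal in a list. A microRNA gene was called bound when an IDR summit lay in a window from 2 kb upstream of the hairpin's 5' end to the hairpin's 3' end. No read counts come with the lists, which leaves the depth unknown. Each interval given is the exact 95% binomial interval (Clopper-Pearson) and covers counting error alone. Coordinates are 1-based in dm6 (Release 6).

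By this rule 28 of 260 microRNA genes were bound (10.8%, interval 7.28 to 15.2). They include mir-279 at the strongest peak, bantam, mir-8, mir-14, mir-277, mir-282, mir-275 with mir-305, and 5 genes of the large mir-2 family. Hairpins within 10 kb on the same strand share windows, and of 203 loci made by joining them 25 had a bound member (12.3%, interval 8.13 to 17.6). The windows of the 28 genes hold 27 distinct IDR peaks.

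Mature products of bound genes inside noncoding genes are shown first, together with mir-305 beside mir-275, because their loci are described in most detail. Capitals mark the seed, each sequence is the first product annotated for its hairpin, and all were read from the RefSeq Release 6 genome and annotation.
mir-279 (3R): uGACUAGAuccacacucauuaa
mir-282 (3L): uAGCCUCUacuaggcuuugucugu
mir-ban (3L): uGAGAUCAuuuugaaagcugauu
mir-375 (2L): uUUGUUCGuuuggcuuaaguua
mir-275 (2L): uCAGGUACcugaaguagcgcgcg
mir-305 (2L): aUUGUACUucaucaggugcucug
mir-277 (3R): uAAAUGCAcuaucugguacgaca

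The second set belongs to the mir-2 family, the only seed that 2 or more bound genes share. It is shown with mir-996, which has the seed of mir-279 and lies in the same host gene. Of the genes listed, mir-2a-1, mir-2b-1, mir-11 and mir-996 had no IDR summit in their windows. In fly embryos the mir-2 family is known to repress the cell death genes reaper, grim and sickle.
mir-2c (3R): uAUCACAGccagcuuugaugggc
mir-13a (3R): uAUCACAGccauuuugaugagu
mir-13b-1 (3R): uAUCACAGccauuuugacgagu
mir-13b-2 (X): uAUCACAGccauuuugacgagu
mir-2a-1 (2L): uAUCACAGccagcuuugaugagc
mir-2b-1 (2L): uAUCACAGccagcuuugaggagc
mir-11 (3R): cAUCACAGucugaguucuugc
mir-996 (3R): uGACUAGAuuucaugcucgucu

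The third set is the DNA at the summits of 4 bound genes, 101 bp each on the plus strand. For mir-279, mir-282 and mir-ban the capital is the summit base, and for mir-4943 the capitals are the AP-1 site that it alone of the 27 peaks has within 50 bp of the summit. The letters were read from the RefSeq Release 6 genome.
mir-279, chr3R:29214378-29214478: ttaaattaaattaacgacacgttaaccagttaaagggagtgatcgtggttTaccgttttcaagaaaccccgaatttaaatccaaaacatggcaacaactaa
mir-282, chr3L:3250228-3250328: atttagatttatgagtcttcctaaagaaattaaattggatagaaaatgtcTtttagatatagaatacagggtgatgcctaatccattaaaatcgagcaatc
mir-ban, chr3L:640716-640816: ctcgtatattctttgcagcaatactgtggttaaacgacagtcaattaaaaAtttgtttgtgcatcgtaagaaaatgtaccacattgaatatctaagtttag
mir-4943, chr2L:16528648-16528748: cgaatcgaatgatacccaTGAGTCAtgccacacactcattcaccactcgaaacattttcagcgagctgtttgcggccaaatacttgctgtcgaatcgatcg

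The share of bound microRNA genes was set beside windows of the same shape elsewhere. Protein-coding genes, with the window at the gene's 5' end, were bound in 19.5% of 13945 cases. For tRNA genes the share was 12.4% of 290, for snoRNA genes 28.6% of 269, and for other noncoding RNA genes 8.69% of 2520. Consecutive bins of 2092 bp over the 6 arms, whether or not a gene lies there, held an IDR summit in 5.34% of 63994 cases. The interval for microRNA genes lies below the shares for protein-coding genes and snoRNA genes and above that for bins. It spans those for tRNA genes and other noncoding RNA genes. No test of these differences was made, since hairpin 5' ends are not transcription starts and the groups differ in where they lie.

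**Figure D1:**
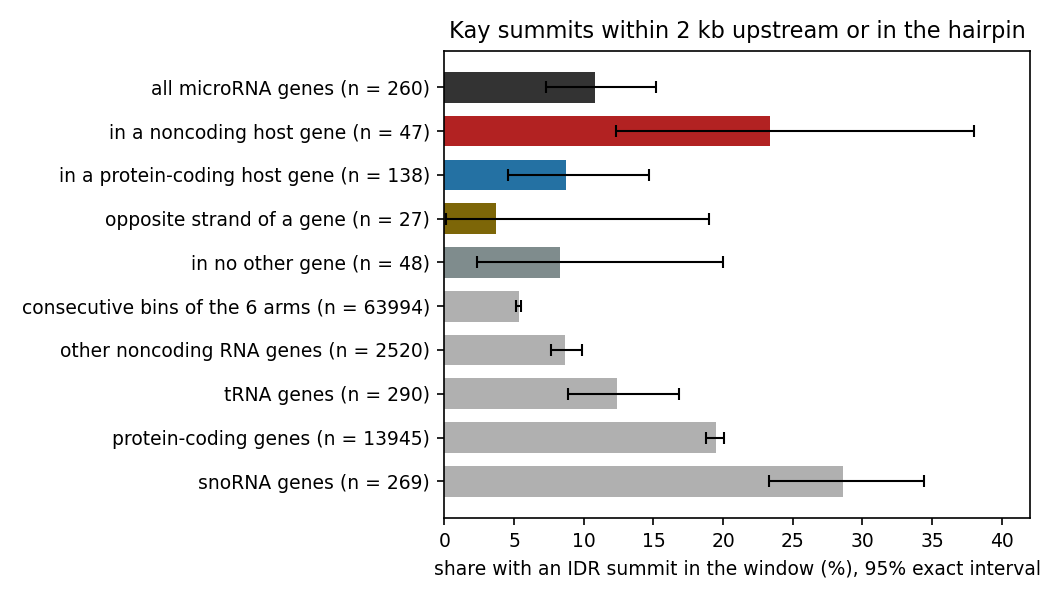
Share of genes or bins with an IDR summit in the window (x axis, percent), for all microRNA genes, for microRNA genes by the gene they lie in, and for the background groups; bars are shares, whiskers are exact 95% binomial intervals and n is the number of genes or bins. All 260 microRNA genes stand at 10.8%, and those in noncoding host genes stand at 23.4% with a wide interval.

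By the gene around the hairpin, 11 of 47 microRNA genes inside a noncoding gene on the same strand were bound (23.4%, interval 12.3 to 38). In protein-coding hosts on the same strand 12 of 138 were bound (8.7%, interval 4.57 to 14.7), among them 11 of 100 in introns, 1 of 19 in UTRs and 0 of 19 in coding exons. Of the 27 hairpins opposite a gene 1 was bound, and of the 48 in no other gene 4 were. Of the 34 hairpins that fill a whole intron, as mirtrons do, 2 were bound (5.88%, interval 0.72 to 19.7). The intervals of the noncoding and protein-coding hosts overlap, and neighbours in a cluster are counted separately here.

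The 28 bound windows held peaks of middling strength. Their strongest summits had signals from 94.8 to 553.1 with a median of 134.6, beside 93.6 to 2530.6 and a median of 141.3 over all IDR peaks. The ranks ran from 109 to 3791. At rank 1000 or stronger were 5 genes, then 7 more to rank 2000, 8 more to rank 3000 and the last 8 weaker still. The strongest summit lay between 1901 bp upstream and 97 bp inside the hairpin, with a median of 794 bp upstream. It fell within 500 bp of the hairpin in 9 genes, counting the summit inside it, from 500 to 1000 bp in 8, from 1000 to 1500 bp in 9 and farther in 2.

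**Figure D2:**
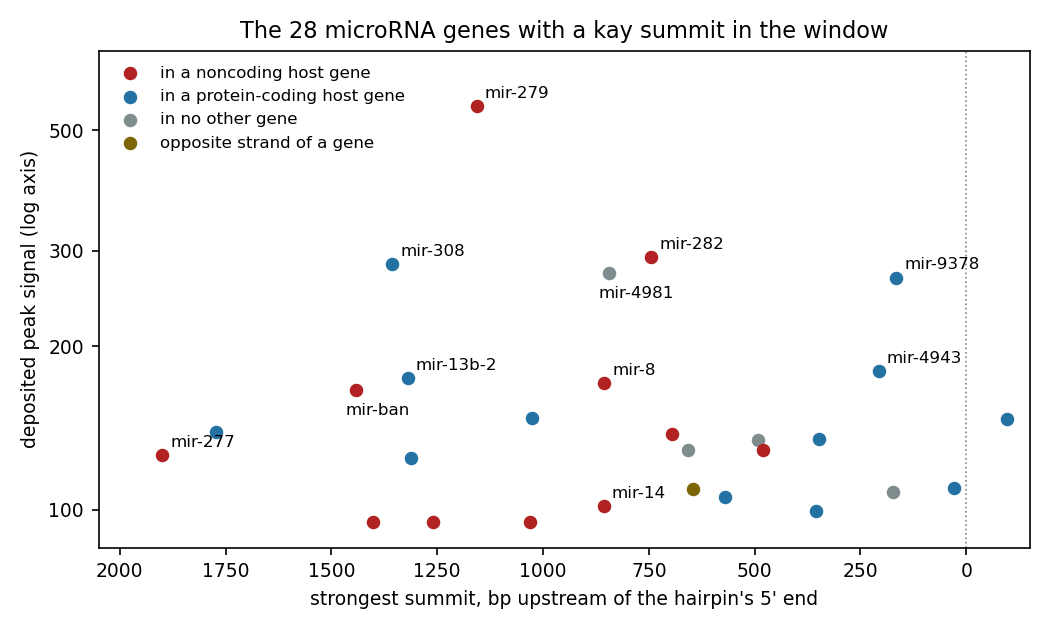
Deposited signal of the strongest IDR summit (y axis, log scale) against its distance upstream of the hairpin's 5' end in bp (x axis), 1 point for each of the 28 bound microRNA genes, coloured by the gene the hairpin lies in; the dotted line is the hairpin's 5' end. mir-279 stands highest at a signal of 553.1, and the summits spread over the whole window.

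The noncoding hosts are noncoding genes that overlap a hairpin on the same strand, and kay summits at several of them lay at the annotated start. Whether each host is the primary transcript of its microRNA was not tested. mir-279, known for its roles in olfactory neuron fate and in JAK/STAT signalling, lies at chr3R:29215585-29215684 in an exon of lncRNA:CR31044. Its peak (chr3R:29214272-29214590) had signal 553.1 and rank 109 in the pooled IDR list, and ranked 109 in replicate 2 and 102 in replicate 4. The summit was 1157 bp upstream of the hairpin and 134 bp from the start of the host, while the nearest coding start, that of eEF1gamma, was 5744 bp away. This is the strongest of the 27 peaks in the pooled list and in both replicates. Its cluster partner mir-996 (chr3R:29217184-29217280) had no IDR summit of its own, only a candidate at rank 4428.

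mir-282 lies at chr3L:3251022-3251118 in an exon of lncRNA:CR43626. Its peak had signal 291.7 and rank 436, and ranked 296 in replicate 2 and 848 in replicate 4. The summit was 744 bp upstream of the hairpin and 316 bp from the nearest of the host's 3 annotated starts. The nearest coding start was 2263 bp away, so the peak sat at the noncoding host rather than at a coding promoter. mir-375 (chr2L:857542-857632), whose mammalian counterpart is known from pancreatic islets, lies in lncRNA:CR45345. Its peak had signal 137.8 and rank 2020, with ranks of 2100 in replicate 2 and 1803 in replicate 4, and lay 556 bp from the host start. A summit at rank 2359 lay 2296 bp upstream of this hairpin and another at rank 3369 lay 822 bp downstream of its 5' end.

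bantam (mir-ban, chr3L:642208-642288) promotes growth and blocks cell death by repressing hid. The strongest summit in its window had signal 165.7 and rank 1421, 1442 bp upstream of the hairpin, and ranked 1565 in replicate 2 and 1533 in replicate 4. Its host, lncRNA:CR43334, spans 15466 bp with 3 annotated starts, and 7 IDR summits lay between 3 kb before that span and its end. They ran from 13901 to 1442 bp upstream of the hairpin. The strongest of the 7 had signal 200.0 and rank 983, 3328 bp upstream of the hairpin and 834 bp from a host start. The farthest had signal 155.8 and rank 1619 and lay 128 bp from a distal start. Replicate ranks of the 7 peaks ran from 774 to 4126 in replicate 2 and from 951 to 4255 in replicate 4. Over all 34 noncoding hosts, counted the same way, 18 had no summit, 9 had 1, 4 had 2 and 3 had 3 or more, and 7 was the highest number. Hosts differ in length, so longer ones had more room for a summit.

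mir-277 and mir-34, which are linked to amino acid breakdown and to ageing, lie in lncRNA:CR43459 together. The mir-277 window (hairpin at chr3R:10100022-10100121) held a summit 1901 bp upstream, with signal 126.0 and rank 2395, and ranks of 3209 in replicate 2 and 1706 in replicate 4. That summit was 4360 bp from the host start, inside the transcript. A second summit, with signal 115.6 and rank 2743, lay 268 bp from the host start. The replicate ranks were 1992 and 4818. The window of mir-34 itself had no IDR summit, only a candidate at rank 7107.

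mir-275 (chr2L:7425795-7425892) and mir-305 (chr2L:7425972-7426044) share a peak 481 bp and 658 bp upstream. It had signal 128.9 and rank 2299, and ranked 2841 in replicate 2 and 1811 in replicate 4. The host lncRNA:CR43857 starts 1494 bp from the summit and its annotation ends between the hairpins, so mir-305 counts as lying in no gene. mir-2c, mir-13a and mir-13b-1 share the weakest of the 27 peaks, with signal 94.8 and rank 3791, and ranks of 4450 in replicate 2 and 4060 in replicate 4. It lay 1498 bp from a start of their host lncRNA:CR45911.

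The other bound genes in noncoding hosts are mir-8 and mir-14, both on arm 2R. mir-8 is the fly counterpart of the mir-200 family and is known to act on body growth. Its peak had signal 171.0 and rank 1330, ranked 1304 in replicate 2 and 1441 in replicate 4, and lay 855 bp upstream of the hairpin and 112 bp from a start of lncRNA:CR43650. mir-14, known as a suppressor of cell death and a regulator of fat metabolism, had 2 summits. The stronger had signal 101.3 and rank 3442, 61 bp from the start of lncRNA:CR43651, and the other, at rank 3506, lay 402 bp from it. Both overlap a single candidate in each replicate, which ranked 2280 in replicate 2 and 2069 in replicate 4.

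**Figure D3:**
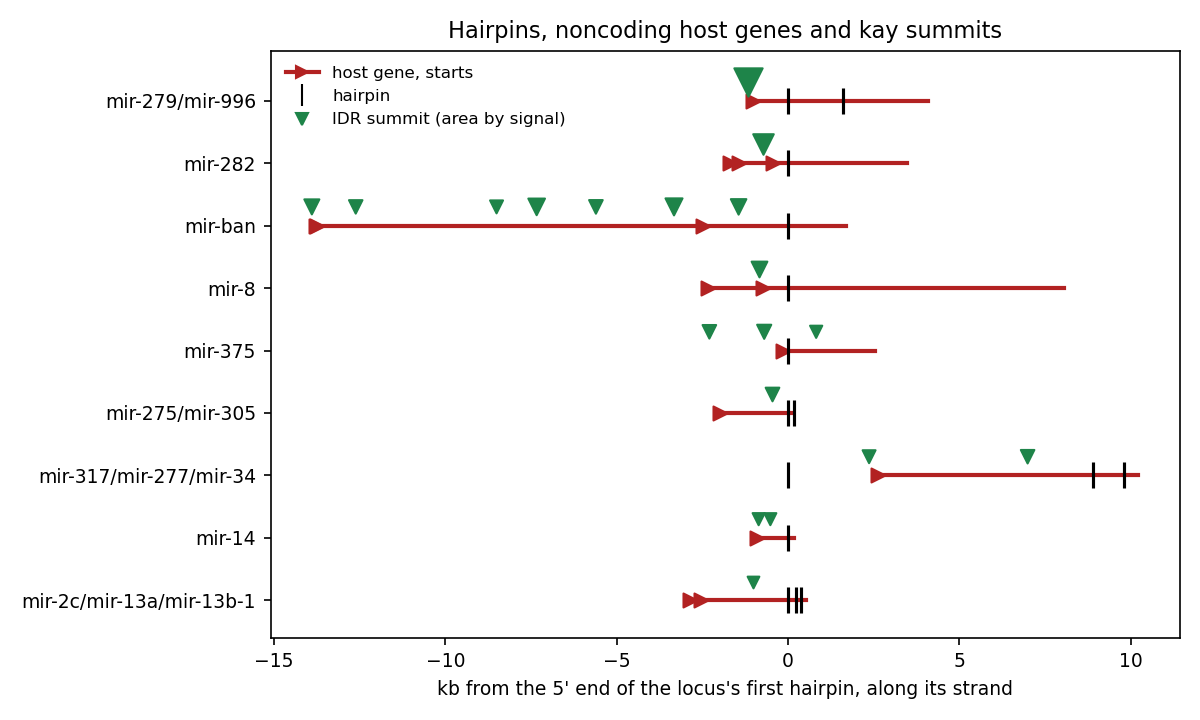
Map of the 9 loci with a bound microRNA gene in a noncoding host, in kb along the strand from the first hairpin's 5' end (x axis): red lines are host genes with arrowheads at annotated starts, black ticks are hairpins, and green triangles are IDR summits with area by signal. At mir-279, mir-282, mir-8, mir-14, bantam and mir-277 with mir-34 a summit sits within 500 bp of a host start, and the bantam host carries 7 summits.

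At none of the 11 bound genes in noncoding hosts did a coding start lie within 500 bp of the summit. Of the 12 bound genes in protein-coding hosts 7 had one that close, so the same window there often reached a coding promoter. Over all 28 bound genes a coding start lay within 500 bp of the summit in 9 and a start of any gene in 13. The median distance was 1365 bp to a coding start and 574.5 bp to any start.

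Among hosts that code for protein, the peak upstream of mir-308 was the strongest in a window. mir-308 is a mir-2 family gene in an intron of RpS23, a ribosomal protein gene. Its window held 2 summits, the stronger with signal 282.9 and rank 469, 593 bp from the RpS23 start, and the other at rank 2638. The overlapping candidates ranked 463 in replicate 2 and 382 in replicate 4. mir-13b-2 (chrX:9091230-9091299) lies in an intron of CCT2, which encodes a chaperonin subunit. Its peak had signal 174.5 and rank 1284, 397 bp from the CCT2 start, and ranked 949 in replicate 2 and 1836 in replicate 4. The mir-13b-2 summit thus lay within 500 bp of the host's start, and the mir-308 summit just beyond that distance.

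A summit within 500 bp of a coding start was also found at 6 less studied intronic genes. mir-2493 lies in CG42788 (rank 1782, 42 bp from its start). mir-966 lies in Pfas, an enzyme gene of purine synthesis (rank 2109, 10 bp from its start). mir-967 lies in bun, which encodes a TSC22 family transcription factor (rank 2450, 155 bp). mir-4918 fills an intron of tex (rank 3526, 195 bp) and mir-4975 lies in CG45092 and chk (rank 3220, 132 bp from the CG45092 start). mir-3645 fills an intron of Mlc-c, a myosin light chain gene, and its summit was the only one inside a hairpin, 97 bp past the 5' end (rank 1788). The replicate candidates that overlap it ranked 660 and 510, and they also overlap the neighbouring Mlc-c promoter peak at rank 664.

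In the remaining intronic or UTR hosts the summit was over 1 kb from the nearest coding start. mir-9378 in CG17124 had signal 267.4 and rank 525, 165 bp upstream of the hairpin and 4222 bp from the nearest coding start, and ranked 496 in replicate 2 and 829 in replicate 4. mir-4943, in a UTR of CG5953, had signal 180.0 and rank 1210, 207 bp upstream, and ranked 1580 in replicate 2 and 998 in replicate 4. mir-4968 in Mob2, a kinase cofactor gene, was at rank 1980 and mir-4962 in Tlk, a chromatin kinase gene, at rank 2999. mir-9378 and mir-4943 thus had peaks near the hairpin and away from annotated starts. CG5953 also had a stronger summit at rank 235 within 1 kb of a start. From 3 kb before the gene to its end, CG5953 held 9 IDR summits, Tlk 8, Mob2 7 and CG17124 1.

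Of the bound genes in no host, mir-4981 (arm 2R) had the strongest peak, with signal 273.1 and rank 504, 844 bp upstream and 650 bp from the CG14762 start. The replicate ranks were 509 and 609. mir-2496 was at rank 2136, 150 bp from the start of lncRNA:CR45478 and 443 bp from the coding start of PIG-K. mir-314 was at rank 3080, 172 bp upstream of the hairpin and 683 bp from the Muc68D start. mir-9380, opposite CG7352, was at rank 3021 and its summit lay 392 bp from the Atg13 start.

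Both replicates contained a candidate that overlaps each of the 28 genes' peaks. IDR peaks were derived from these same replicates, so this overlap is not separate support. Taking from each replicate as many of its strongest candidates as there are IDR peaks, the overlapping candidate was found for 24 genes in replicate 2, for 21 in replicate 4 and for 20 in both. mir-966 (1281 in replicate 2, 6065 in replicate 4) and mir-967 (5821 and 1460) differed most in rank. When the window rule was applied to those candidates of a replicate in place of the IDR list, replicate 2 called 25 genes, replicate 4 called 26 and both called 19, all of them IDR bound. The 3 IDR bound genes that neither replicate called by itself were mir-13a, mir-13b-1 and mir-2c, which share the weakest peak. The signal scale between libraries is not stated, so only ranks are set side by side.

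**Figure D4:**
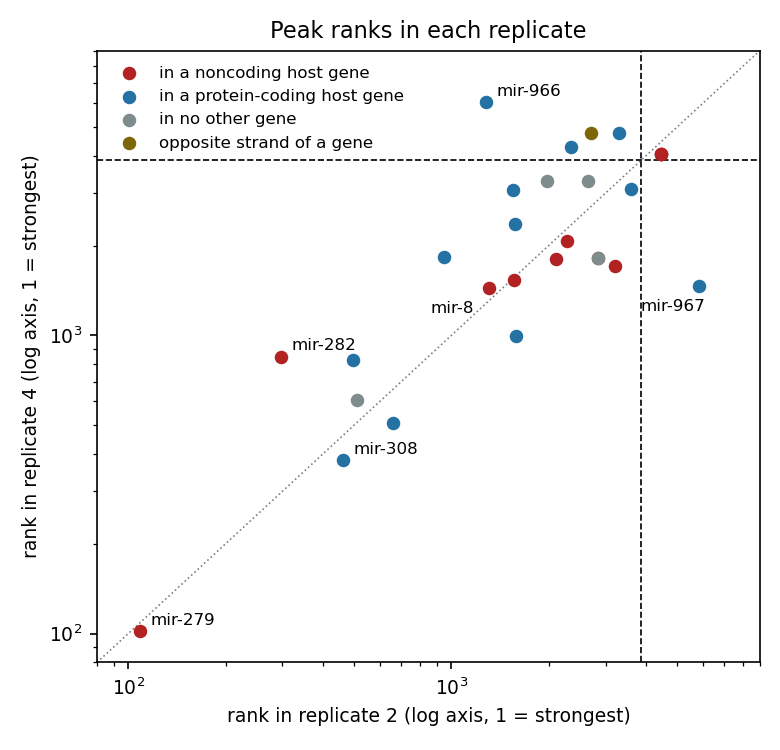
Rank of the strongest overlapping candidate in replicate 2 (x axis) and replicate 4 (y axis), both log scales with 1 the strongest, for the 28 bound microRNA genes, coloured by the gene the hairpin lies in; genes that share a peak overlap, the dotted line is equal rank and the dashed lines are at the number of IDR peaks. mir-279 is at 109 and 102, and 20 genes lie inside the dashed lines of both replicates.

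A weaker signal was common. Pooled candidates, which the deposited file names call peaks and background, lay in the windows of 118 genes (45.4%), so 90 genes had only weaker candidates and 142 had none. The same share was 58.4% for protein-coding genes and 29.8% for bins. Just outside the IDR list stood mir-2283 at rank 4042 (signal 90.8), mir-2491 at 4265 (88.0), mir-996 at 4428 (85.8), mir-4911 at 4821 (81.2) and mir-4912 at 4878 (80.5). Just inside it were mir-2c, mir-13a and mir-13b-1 at 3791 (94.8) and mir-4918 at 3526 (99.5). mir-2283 and mir-996 differed between replicates, at 7492 and 1891 for mir-2283 and at 3376 and 8710 for mir-996, in replicates 2 and 4.

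Several of the best studied fly microRNAs were not bound. The muscle gene mir-1 had a candidate at rank 12915 and its nearest IDR summit 69591 bp away. The neuronal gene mir-124 had no candidate, and its nearest IDR summit was 22562 bp away. The let-7 cluster, which times later development, had no candidate at mir-100, mir-let7 or mir-125, with IDR summits no nearer than 5256 bp. No candidate lay at mir-184, at mir-278, at mir-309, which is in the cluster that clears maternal messages, or at the linked mir-6 copies. Nor was there one at mir-7 or at the Hox cluster gene mir-iab-4, while mir-iab-8 had one at rank 9528. mir-9a (rank 20255), mir-10 (16304), mir-276a (14617), mir-263b (26782) and mir-317 (15994) had only candidates far down the list. A missing peak says only that none was listed in whole embryos, not that no cell had binding there.

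Some unbound hairpins lie far inside hosts whose own starts were bound. Any annotated start of a host was counted, including starts that lie downstream of the hairpin. Of the 130 protein-coding hosts 45 had an IDR summit within 1 kb of a start (34.6%, interval 26.5 to 43.5), beside 21.3% of all protein-coding genes. Hosts are long, with a median of 13462 bp against 2166 bp and a median of 2 starts against 1. Among all protein-coding genes at least as long as the median host the share was 30.1% of 1506. Hosts of that length are included there, while the 34.6% covers hosts of every length, so this comparison is not matched for length. Of the 34 noncoding hosts 9 were bound at a start (26.5%, interval 12.9 to 44.4). The share was 9.88% for other noncoding RNA genes and 12.1% for the 91 at least as long as the median noncoding host. Hosts were not removed from either of these sets, and the 26.5% covers noncoding hosts of every length. In 5 of the 45 coding hosts and in 5 of the 9 noncoding hosts the strongest summit within 1 kb of a start also lay in the window of a hairpin. Weaker summits near a start were left out of this count, such as those in the windows of mir-967, mir-4975 and mir-3645.

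Of the coding hosts with a bound start, kuz had the strongest. kuz, which encodes a metalloprotease that cleaves Notch and hosts mir-2489, had a summit at rank 76 (signal 640.5). Btk, a tyrosine kinase gene and host of mir-2b-1, had a summit at rank 120 (531.6). for, a cGMP-dependent kinase gene and host of mir-4972, had one at rank 124 (519.5). rhea, the gene of the integrin adaptor talin and host of mir-190, was at rank 274, and jigr1, host of mir-92a and mir-92b, was at 336. The jigr1 summit lay 541 bp from the 5' end of mir-92a, on its downstream side. spi, which encodes the main EGF receptor ligand and hosts mir-2a-1, mir-2a-2 and mir-2b-2, was at 366. SREBP, a lipid synthesis regulator that hosts mir-33 as its vertebrate counterparts do, was at 507. Farther down were grp at 1719, E2f1 with mir-11 and mir-998 at 2783 and HnRNP-K with mir-7 at 2877. Of noncoding hosts whose hairpin was unbound, Hsromega with mir-4951 was at 1229 and lncRNA:CR43314 with mir-bft at 2111.

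Counting a summit in the window or at a host start, 72 of 260 microRNA genes had one (27.7%, interval 22.3 to 33.6), in 59 of 203 loci (29.1%). This count includes genes whose host summit lies downstream of the hairpin, such as mir-92a in jigr1 and mir-9384 in tacc. How many such genes there are was not determined. The rule gives a gene in a host several chances to be called, so it was also applied to the bins of both strands, with the last 92 bp taken as the hairpin. Of these bins 12.6% were called. In protein-coding hosts 52 of 138 microRNA genes were called (37.7%, interval 29.6 to 46.3), beside 28.3% of bins in such genes. In noncoding hosts 15 of 47 were (31.9%, interval 19.1 to 47.1), beside 10.1% of bins. Bins in 1 host share its starts, as do hairpins of 1 cluster, and the differences were not tested. The mir-2 family, with the seed AUCACAG, has 13 genes in 7 loci. A summit lay in the window of 5 of the 13 and in the window or at a host start of 10, in 6 of the 7 loci. These are the mir-2c cluster, mir-13b-2 in CCT2, mir-308 in RpS23, the spi intron with mir-2a-1, mir-2a-2 and mir-2b-2, mir-2b-1 in a UTR of Btk and mir-11 in E2f1. The exception was the locus of mir-6-1, mir-6-2 and mir-6-3. The family was singled out after its values were seen, so the counts are a description. Of the other seeds with 3 or more genes, the seed of mir-92a had 2 of 6 genes by the same count, that of mir-9a 2 of 3, that of mir-279 2 of 3, and those of mir-309 and of the mir-10404 copies 0 of 3 each. In all, 24 seeds were found among the 28 bound genes, of 224 among the 260.

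The AP-1 site TGACTCA, or its reverse complement TGAGTCA, was searched on both strands. It lay within 50 bp of the summit at 1 of the 27 peaks (3.7%, interval 0.0937 to 19), beside 4.77% of all IDR peaks. Anywhere in the peak it was found in 2 of 27 (7.41%), beside 11.7% of all IDR peaks. The full windows held a site in 31 of 260 microRNA genes (11.9%) and in 4 of the 28 bound ones (14.3%), beside 15.2% of protein-coding windows. The intervals of both peak shares include the shares over all IDR peaks.

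The sites themselves are given on the plus strand with 4 bases to each side, in capitals where they match, from the RefSeq Release 6 genome. The first lies 29 bp from its summit and the second 137 bp, just outside the 2 kb window. The others lie in a bound window but outside the peak, 465, 774 and 1730 bp from the summit.
mir-4943, chr2L:16528662-16528676: cccaTGAGTCAtgcc
mir-277, chr3R:10097977-10097991: tatcTGAGTCAgtcg
mir-ban, chr3L:640294-640308: agcgTGAGTCAtgcg
mir-966, chr2L:6046827-6046841: gacaTGACTCAttag
mir-314, chr3L:11771103-11771117: atgaTGACTCAtttg

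The share of bound genes rose with the length of the window, as did the backgrounds. With 1 kb upstream 6.54% of microRNA genes were bound, beside 16.5% of protein-coding genes and 2.92% of bins. With 5 kb the shares were 22.3%, 28.2% and 11.6%, and with 10 kb they were 31.9%, 38.9% and 19.8%. At each of the 4 lengths microRNA genes stood between the bins and the protein-coding genes. The median distance to the nearest IDR summit was 10824 bp from hairpins, 8448 bp from coding 5' ends and 21791 bp from bin midpoints.

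**Figure D5:**
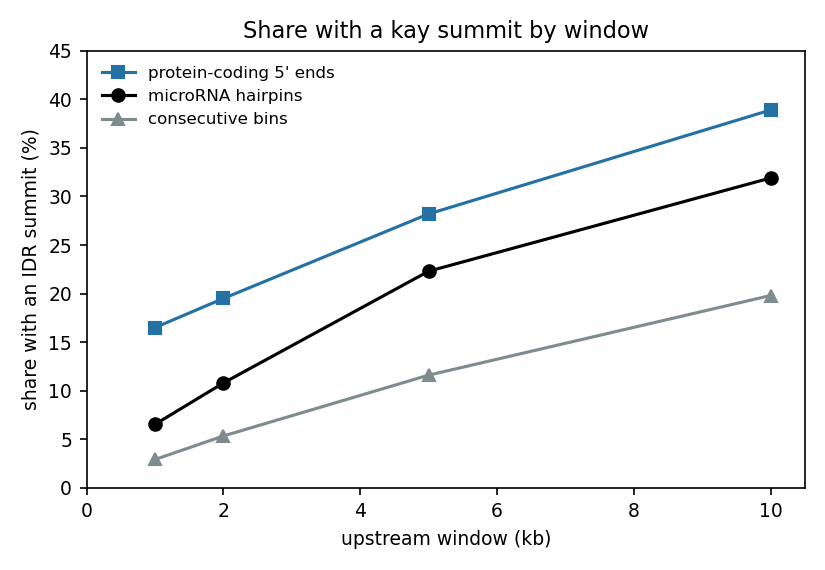
Share with an IDR summit (y axis, percent) for upstream windows of 1, 2, 5 and 10 kb (x axis), for the 260 microRNA hairpins, the 5' ends of protein-coding genes and consecutive bins of the same total length. The microRNA share rises from 6.54% to 31.9% and lies between the other lines throughout.

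Genes of the microRNA machinery were examined by an IDR summit within 1 kb of a start, the rule that called 21.3% of protein-coding genes. Of 10 microRNA pathway genes 3 were bound. AGO1, the effector that carries microRNAs, had a summit at rank 1741 (signal 149.3), 22 bp from a start, with ranks of 2399 in replicate 2 and 1257 in replicate 4. gw, which encodes its silencing partner GW182, had one at rank 1323 (171.4), 148 bp from a start, with ranks of 1108 and 1781. Tailor, which adds uridines to mirtron hairpins, had one at rank 389 (305.5), ranked 373 and 418, but the summit was 601 bp from its start and 85 bp from that of alphaTub84B. pasha (rank 9035), loqs (13759), ldbr (11379) and nbr (4127) had only weaker candidates, and drosha, Dcr-1 and Ranbp21 had none. Of 4 genes of the related siRNA pathway 2 were bound. AGO2 had a summit at rank 346 (324.2), 51 bp from a start, ranked 376 and 322. r2d2 had one at rank 540 (262.3), ranked 611 and 547, though the start of Herp was nearer at 54 bp. Dcr-2 (12194) and Hen1 (6291) had only weaker candidates.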

How the data were processed

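The authors deposited peak lists for each replicate and for both pooled, in dm6 and dm3, and only the dm6 lists were used. Per the file headers and labels, candidate lists served as input to the IDR procedure. Neither the aligner nor the peak caller is named in these sources. Each deposited region carries a signal, used for ranks within a list, a deposited −log10 q value that was not used for ranking, and a score column with the summit's offset from the start, set by the authors' caller. Replicate ranks are those of the strongest candidate overlapping the peak by at least 1 bp.

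Genes came from Ensembl release 115 and sequence from RefSeq Release 6. Background windows took 2 kb upstream and 92 bp, the median hairpin length, inside the gene. Mature microRNAs annotated as separate genes (481) were not counted as hosts. A hairpin within 5 bases of an intron's ends filled it. Named genes were bound genes, well-studied members, biogenesis genes, hosts of bound genes and the 5 strongest members outside the IDR list; others were named after their values were seen. No annotated gene carried the symbol mir-263a, so no result is given under that name. The members, lists and rules were chosen with earlier results of these data known. The window and motif code was tested on simulated data. Python 3.11.15, numpy 2.4.6, scipy 1.17.1 and matplotlib 3.10.9 were used.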

Additional observations from a re-analysis of the deposited data

How the results depend on the processing

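The number of bound microRNA genes (28) followed the window and the list: 17 with 1 kb, 58 with 5 kb, 83 with 10 kb, 11 with the strongest 50% of the IDR peaks and 118 with all pooled candidates. It hardly moved with any base of a peak in the window (29) or with the precursor type alone (28). With only summits over 500 bp from a coding start it fell to 19. For the 25 bound loci the counts were 16 with 1 kb, 49 with 5 kb and 11 with the strongest 50%, and joining within 1 kb gave 25 of 213. The AP-1 count of 1 became 2 anywhere in the peak and 2 with TGANTCA within 50 bp (7.93% of all IDR peaks), and stayed 1 within 100 bp (7.44% of all). Within 500 bp of a start, 45 of 164 hosts and 4 of 14 pathway genes were bound, against 54 and 5 within 1 kb. The median rank of bound genes was 7.08% of the pooled list, 6.79% in replicate 2 and 6.08% in replicate 4; the cause was not tested. With each replicate left out, the counts were 25 to 26 genes, 23 to 25 loci, 52 to 58 hosts and 5 pathway genes both times, and the median summit position of 794 bp became 681 to 842 bp. Leaving out a replicate for the summit position, the backgrounds of long genes and the bins for the combined rule of window or host start were added after seeing the data. No paired analysis was possible because all samples form 1 group. The lists hold no reads, so neither depth nor what it hides in weak peaks could be assessed.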
